A study of Mus musculus with 203 samples.

Results

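The genes described here were the eotaxins and the genes of the eosinophil they attract, 7 of the 43346 gene identifiers in the table of the series. Members were found by mapping the Ensembl identifiers to mouse symbols. They were Ccl11 and Ccl24, which encode the chemokines eotaxin-1 and eotaxin-2, Ccr3, which encodes their receptor, Il5ra, which encodes the ligand-binding chain of the IL-5 receptor, Siglecf, which encodes a sialic acid-binding surface lectin, and Epx and Prg2, which encode the granule proteins eosinophil peroxidase and major basic protein. Each was read in all 20 groups of week, tissue and exposure.

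The libraries were bulk RNA-seq of lung from female Balb/C mice labelled as 18-20 weeks old, in which the airway and the parenchyma had been parted by blunt dissection. House dust mite extract (HDM) or saline (PBS) was given intranasally on 5 days of each week over 3 weeks in the 3-week groups, of 11 PBS and 10 HDM airway libraries and 12 PBS and 10 HDM parenchyma libraries. In the 11-week groups, of 10 libraries each in each tissue, HDM or PBS was continued at 3 times per week in weeks 4 to 11. Those mice also breathed room air (AIR) or cigarette smoke (CS), the latter 2 times per day, 5 days a week, over 8 weeks, and some received dexamethasone (DEX), a glucocorticoid, in week 11. Total counts per library ran from 13003087 to 40240680. Nothing in the labels said whether the libraries of a group came from separate mice, so p-values measured only the spread between these libraries.

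Eotaxins are small secreted proteins that draw eosinophils out of the blood by binding CCR3, a receptor that eosinophils carry at high density. In allergic lung, CCL11 is known as a product of fibroblasts, smooth muscle and epithelium, and CCL24 as a product of macrophages under IL-4 and IL-13. IL-5, read through its receptor chain IL5RA, drives the growth and survival of eosinophils. SIGLECF sits on mouse eosinophils and also on alveolar macrophages, IL5RA also on some B cells, and the mRNAs of the granule proteins are made mostly by eosinophil precursors in the bone marrow.

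The coding sequences of both eotaxins are shown because the adjacent cysteines, which name the CC chemokine family, are what the 2 ligands of the receptor share. Ccl11 lies at chr11:82057823-82062955 on the plus strand and Ccl24 at chr5:135569937-135573049 on the minus strand of mm10 (GRCm38). Capitals mark each pair of adjacent cysteine codons, at codon 32 of Ccl11 and at codons 19 and 33 of Ccl24. The pair at codon 33 of Ccl24 is the one that matches the CC pair of Ccl11, while the pair at codon 19 lies in the leader of the protein and is not that motif.
Ccl11: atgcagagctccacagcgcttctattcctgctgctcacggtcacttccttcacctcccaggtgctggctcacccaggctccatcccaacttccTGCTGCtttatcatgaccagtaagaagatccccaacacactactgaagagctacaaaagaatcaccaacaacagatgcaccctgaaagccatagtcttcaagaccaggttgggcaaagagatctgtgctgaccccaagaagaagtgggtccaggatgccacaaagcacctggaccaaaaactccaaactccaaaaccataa
Ccl24: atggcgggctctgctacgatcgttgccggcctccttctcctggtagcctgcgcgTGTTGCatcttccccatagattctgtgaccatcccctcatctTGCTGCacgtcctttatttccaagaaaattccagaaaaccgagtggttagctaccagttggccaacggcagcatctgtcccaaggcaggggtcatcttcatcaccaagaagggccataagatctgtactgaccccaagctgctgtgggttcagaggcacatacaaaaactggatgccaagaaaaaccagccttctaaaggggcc
Ccl11 is shown whole and Ccl24 by its first 300 bases. The whole Ccl11 sequence had 294 bases with 16 lysine or arginine codons and 4 aspartate or glutamate codons, and the whole Ccl24 sequence had 360 bases with 19 and 5. Prg2 lies at chr2:84980461-84983632 on the plus strand.

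Promoters were read for Ccr3, Il5ra, Siglecf and Epx from RefSeq (GRCm38.p6), where 4 of the 7 members matched, as the 250 bases before the start. They are shown for both receptors, whose levels fell with dexamethasone in HDM mice in room air and in PBS mice in smoke. Neither receptor passed in PBS mice in room air or in HDM mice in smoke. Some of the calls were lost with other methods, as given below. Ccr3 lies at chr9:124021972-124031689 on the plus strand and its promoter window at chr9:124021721-124021970. Il5ra lies at chr6:106710357-106749037 on the minus strand and its window at chr6:106749038-106749287. Capitals mark GATA on the strand shown or on the other strand (TATC), the letters bound by GATA factors, of which GATA1 is a regulator of eosinophil development.
Ccr3: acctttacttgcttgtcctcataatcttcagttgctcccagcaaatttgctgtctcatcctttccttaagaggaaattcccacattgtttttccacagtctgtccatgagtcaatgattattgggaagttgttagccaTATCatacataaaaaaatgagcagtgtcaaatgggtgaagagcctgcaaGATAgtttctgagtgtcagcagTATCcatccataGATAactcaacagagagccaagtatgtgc
Il5ra: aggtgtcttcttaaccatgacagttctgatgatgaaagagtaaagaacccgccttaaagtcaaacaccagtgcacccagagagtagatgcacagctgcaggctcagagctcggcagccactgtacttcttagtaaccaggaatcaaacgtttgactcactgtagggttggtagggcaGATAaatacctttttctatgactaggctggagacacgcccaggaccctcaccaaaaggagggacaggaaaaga
The Ccr3 window held 4 matches, with first bases at -112, -63, -41 and -29. The windows of Il5ra, Siglecf and Epx held 1 each, at -73, -38 and -26. Siglecf lies at chr7:43351341-43359531 on the plus strand and Epx at chr11:87864000-87875536 on the minus strand. Of 32536 promoter windows of this length, 53.4% held GATA on either strand and 3.48% held at least 4 matches. Neither the STAT6 motif of facing half-sites with 4 bases between, found in 5.89% of all windows, nor TTGCGCAA, the C/EBP letters, found in 0.166%, occurred in these 4 windows. Matches overlapped no other motif searched, and a match is a description of letters only.

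Levels were given in CPM, counts scaled to the library total with TMM factors over all libraries, and per kilobase of merged exons where different genes were set side by side. Per kilobase, group medians spanned 1.02 to 41.5 CPM for Ccl11, 0.18 to 16.5 for Ccl24, 1.51 to 13.4 for Siglecf, 0.0657 to 4.47 for Ccr3, 0.0456 to 5.85 for Prg2, 0.0169 to 0.317 for Il5ra and 0 to 0.183 for Epx. The 2 eotaxins and Siglecf thus reached the upper end of the range and Epx and Il5ra the lower end. In the order of group medians, no 2 neighbouring groups were without overlap for any member. The highest median was in 3-week HDM parenchyma for Ccl24, Siglecf, Epx and Prg2, and in 3-week HDM airway for Ccl11, Ccr3 and Il5ra.

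**Figure D1:**
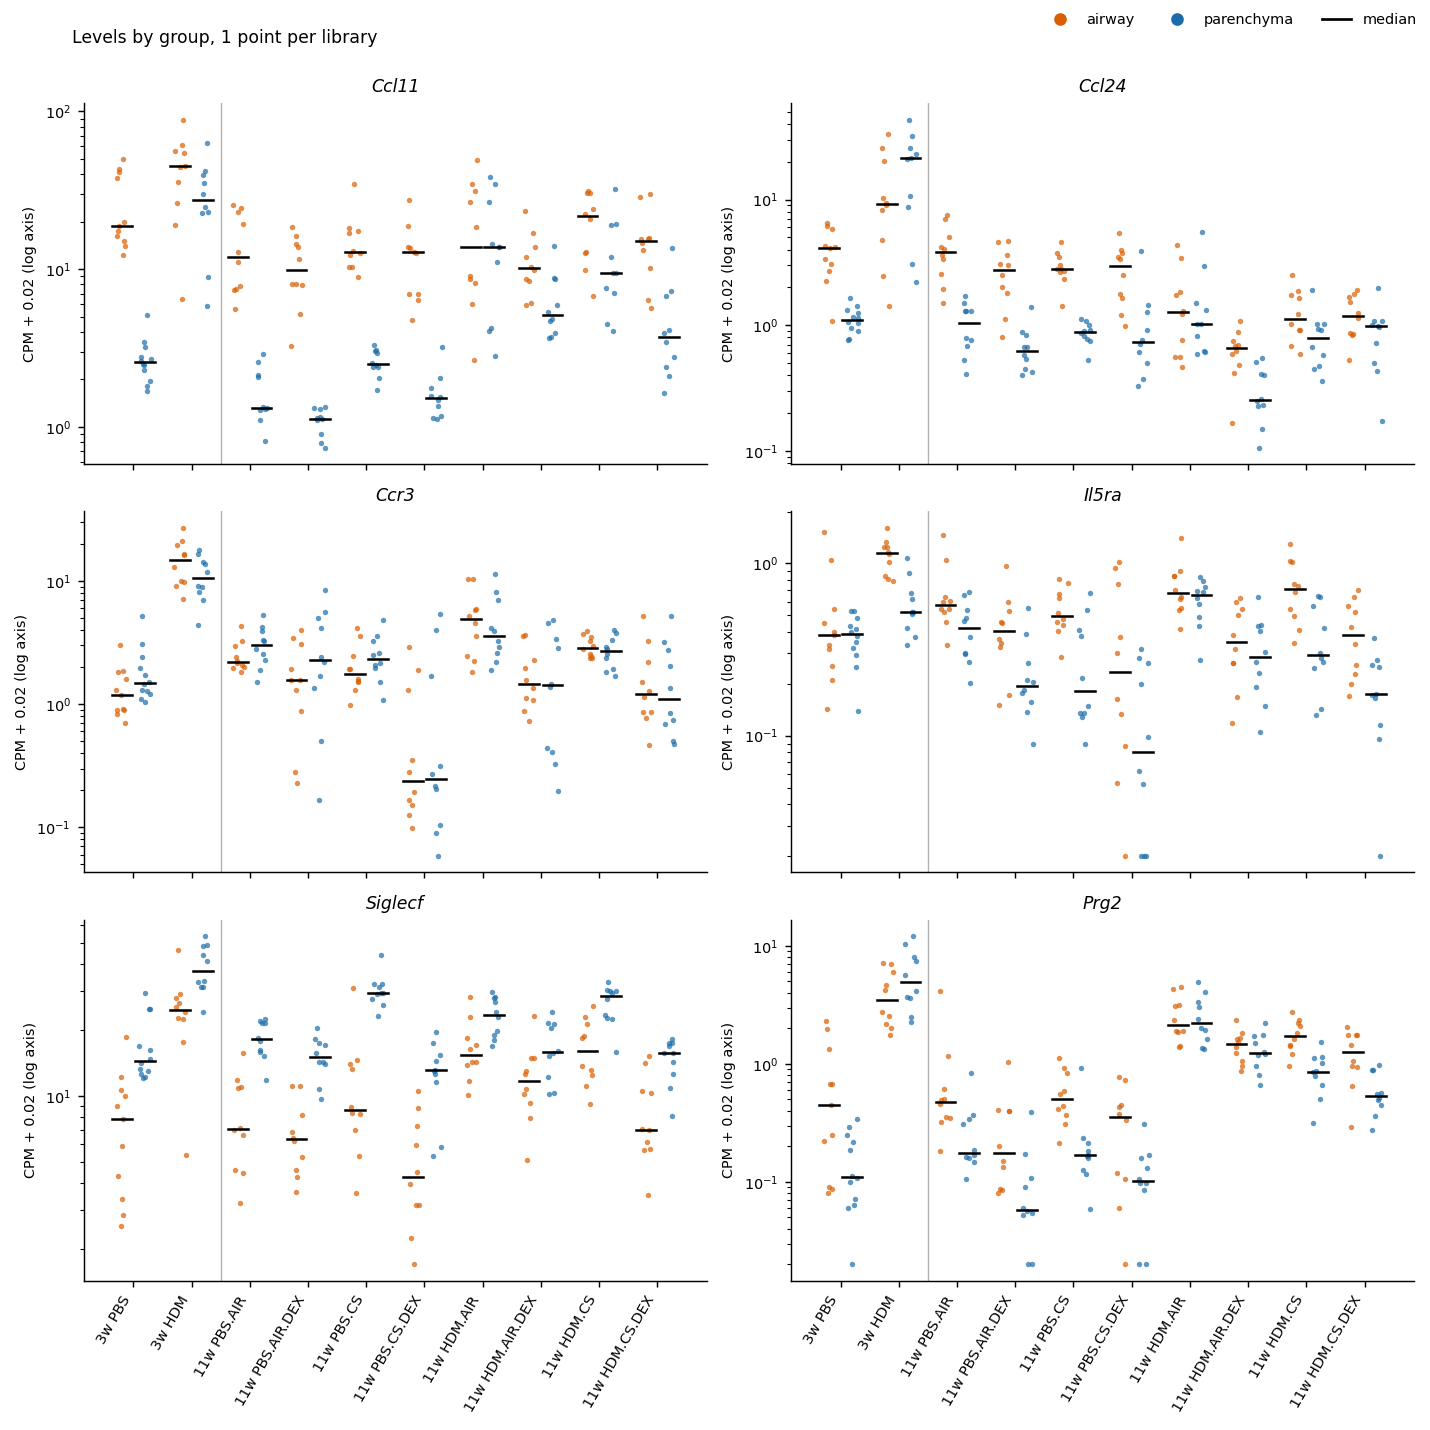
Levels of 6 members in each library, in CPM plus 0.02 on a log axis, by group, with airway and parenchyma in separate colours and a bar at each group median. Ccr3 stands highest in 3-week HDM (medians 14.6 and 10.5 CPM) and lowest in PBS.CS.DEX (0.215 and 0.224 CPM).

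The markers behind the eosinophil label were read by their counts. All but Prg3 were members themselves, so they give no independent check of that label. Siglecf and Ccr3 had counts in every library, with 5 libraries at 3 counts or fewer for Ccr3. Il5ra was at 0 in 5 libraries and at 3 or fewer in 25, with a highest count of 49. Prg2 was at 0 in 6 libraries and at 3 or fewer in 37, with a highest count of 336. Epx was at 3 counts or fewer in 180 libraries, with a highest count of 30, and Prg3, a close relative of Prg2, was at 0 in 66. These 6 genes summed to a median of 11.1 CPM in 3-week PBS airway and 45.9 with HDM, and to 16.4 and 52.3 in parenchyma, most of it Siglecf, which macrophages share. A count of 3, the upper limit that a count of 0 allows, was worth 0.0746 to 0.231 CPM by library, for counting error only. In bulk tissue, fewer eosinophils and less RNA per eosinophil cannot be told apart.

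Tests were limma-voom fits over all genes of the 3-week, 11-week or all libraries, with Benjamini-Hochberg adjustment, and a member passed at an adjusted p under 0.05. Genes needed about 10 counts in at least 9 libraries, which left 6 members in the 3-week and 11-week fits, Epx being below, and 7 in the fit of all libraries. Differences are log2 fold changes with their standard errors (SE).

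The first comparison asked what 3 weeks of HDM did in each tissue. Ccl24, Ccr3, Siglecf and Prg2 rose in both tissues, Il5ra passed in airway and Ccl11 in parenchyma. In airway, 5 of 6 tested members rose and none fell, beside 34.1% of 17381 genes that rose and 74.6% that passed in either direction. In parenchyma, 5 of 6 rose and none fell, beside 33.4% of genes that rose and 77.7% that passed. The median difference over the 6 members was 1.54 in airway and 2.79 in parenchyma, against -0.067 and -0.127 over all genes, so the parenchyma as a whole was centred slightly low.

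Ccl11 in parenchyma was at 1.66, 2.55 and 5.07 CPM (lowest, median and highest) with PBS and at 5.83, 27.3 and 62.6 with HDM. The groups did not overlap, each of the 10 HDM values exceeding each of the 12 PBS values, and the gene rose by 3.10 (SE 0.60, limma-voom adjusted p = 1.23e-05), which is 8.58-fold. In airway it was at 12.3, 18.8 and 49.97 CPM with PBS and at 6.49, 44.9 and 88.7 with HDM. These groups overlapped, with an HDM library as the lowest of all, and the difference of 0.57 (SE 0.34, limma-voom adjusted p = 0.121) did not pass. It did pass with edgeR, at 0.70, and with DESeq2, at 0.72. The airway effect less the parenchyma effect was -2.53 (SE 0.69, adjusted p = 0.00987), the only member to differ between the tissues in this fit, which treats all libraries as independent, beside 17.3% of genes. By edgeR and by DESeq2 3 members differed, Ccl24 and Prg2 in addition, and the same 3 did in limma-voom with consecutive sample codes, described below, joined.

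Ccl24 was at 0.747, 1.08 and 1.63 CPM in PBS parenchyma and at 2.18, 21.3 and 43.4 with HDM. The groups did not overlap, and it rose by 3.54 (SE 0.75, adjusted p = 4.7e-05), or 11.7-fold. In airway it went from 1.06, 4.12 and 6.47 to 1.4, 9.17 and 33.4 CPM. There 7 of 10 HDM libraries lay above every PBS library, and the rise of 1.18 (SE 0.55, adjusted p = 0.0496) only just passed.

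Ccr3 was at 0.677, 1.16 and 3.02 CPM in PBS airway and at 7.09, 14.6 and 27.04 with HDM. Every HDM library was above every PBS library, and the gene rose by 3.40 (SE 0.33, adjusted p = 4.35e-12), or 10.6-fold. In parenchyma it went from 1.02, 1.45 and 5.13 to 4.34, 10.5 and 17.7 CPM, and rose by 2.48 (SE 0.32, adjusted p = 5.42e-09), with 9 of 10 HDM values past the PBS range. Il5ra, through which IL-5 acts, was at 0.122, 0.362 and 1.51 CPM in PBS airway and at 0.766, 1.13 and 1.59 with HDM. The groups overlapped, with only 1 HDM library above the highest PBS library, and it rose by 1.36 (SE 0.26, adjusted p = 9.25e-06). In parenchyma it went from 0.119, 0.371 and 0.509 to 0.316, 0.502 and 1.06 CPM, a difference of 0.54 (SE 0.30, adjusted p = 0.0952) that did not pass, and that passed with DESeq2 at 0.66.

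Siglecf was at 2.51, 7.84 and 18.5 CPM in PBS airway and at 5.36, 24.7 and 46.4 with HDM. Only library X63 of the HDM group, at 5.36, and 1 more lay within the PBS range, and the gene rose by 1.73 (SE 0.30, adjusted p = 3.07e-06). In parenchyma it went from 12.0, 14.4 and 29.5 to 24.1, 37.3 and 53.6 CPM and rose by 1.10 (SE 0.25, adjusted p = 0.000122). Sums of alveolar macrophage markers rose beside it, although single markers went both ways. The 10 alveolar macrophage markers summed to 347 to 878 CPM (median 562) in PBS airway and to 761 to 11885 (median 4117) with HDM, where 4 rose and 3 fell. In parenchyma their sum went from 605 to 1385 (median 800.2) to 3330 to 25339 (median 8092), where 5 rose and 2 fell. Their part in the rise of Siglecf was not tested.

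Prg2 gave the largest fold of the tested members in parenchyma. There it was at 0, 0.0904 and 0.322 CPM with PBS and at 2.22, 4.9 and 12.1 with HDM. The groups did not overlap, and it rose by 5.28 (SE 0.70, adjusted p = 6.2e-09), or 39-fold. Most PBS libraries held few counts, so the fold depends on the prior count of the fit. In airway it went from 0.0609, 0.43 and 2.28 to 1.75, 3.46 and 7.19 CPM and rose by 3.05 (SE 0.51, adjusted p = 1.33e-06).

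Epx, too low for the fit, was compared by permutation of the CPM values (2-sided, 100000 resamples, adjusted over 4 comparisons). In airway 8 of 10 HDM libraries and 1 of 11 PBS libraries had a count. Means were 0.236 ± 0.222 CPM (SD, n = 10) and 0.00249 ± 0.00826 CPM (SD, n = 11), which differed (permutation p = 0.0002, adjusted p = 0.0004). In parenchyma 10 of 10 and 2 of 12 libraries had a count, with means of 0.544 ± 0.407 CPM (SD, n = 10) and 0.0114 ± 0.0285 CPM (SD, n = 12) (permutation p = 3e-05, adjusted p = 0.00012). Counts were low, with a highest count of 23 and a median of 5.5 in HDM airway and a highest count of 30 and a median of 11.5 in HDM parenchyma.

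With PBS alone the tissues differed in the ligand and in the lectin. Ccl11 was higher in PBS airway than in PBS parenchyma by 3.11 (SE 0.59, adjusted p = 2.51e-05), without overlap, and Siglecf was lower, at -1.38 (SE 0.31, adjusted p = 0.000256). Those were 2 of 6 members, beside 56.1% of genes, and 4 passed with edgeR and with DESeq2. With HDM 2 of 6 differed, beside 36.2% of genes. Il5ra was higher in airway by 0.97 (SE 0.25, adjusted p = 0.00259) and Siglecf lower, at -0.75 (SE 0.24, adjusted p = 0.0126), a call lost with edgeR. The difference in Ccl11 was then 0.58 (SE 0.35, adjusted p = 0.197).

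Lists of related genes were described at 3 weeks beside the members. Of 3 other CCR3 ligands, Ccl5, Ccl7 and Ccl28, 3 rose in airway and 2 in parenchyma. Ccl7, a monocyte chemoattractant, rose by 2.75 (SE 0.28) and 4.31 (SE 0.37), and Ccl5, or RANTES, by 1.86 (SE 0.24) and 2.43 (SE 0.25). Of 8 type 2 cytokines and alarmins 5 could be tested, and 3 rose and 1 fell in each tissue. Il13, which induces eotaxins, rose by 4.93 (SE 0.53) and 5.06 (SE 0.50), and the alarmin Il33 by 1.41 (SE 0.13) and 1.46 (SE 0.13). Tslp, another alarmin, fell, at -1.75 (SE 0.15) and -2.16 (SE 0.14). Il5 itself was below the filter at 3 weeks. Of 16 type 2 receptors and signal proteins, 14 rose in airway and 15 in parenchyma and none fell, led by Csf2rb, the signal chain of the IL-5 receptor, at 2.76 (SE 0.17) and 3.26 (SE 0.17). Of 15 other eosinophil genes 13 could be tested, and 6 rose and 1 fell in each tissue. Among those, Cebpe, a factor of granulocyte maturation, rose by 3.33 (SE 0.46) and 3.78 (SE 0.52).

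Beside the members, B cell markers were higher with HDM. All 6 rose in airway, where their sum went from 104.6 to 438 CPM (median 173.04) to 345 to 679 (median 583), and 4 rose in parenchyma. Basophils can also carry CCR3, and of 6 basophil markers none rose while 1 fell in airway and 3 in parenchyma. Of 6 mast cell markers 1 rose in each tissue, and 2 fell in airway and 1 in parenchyma. All 6 plasma cell and all 6 neutrophil markers rose in both tissues, and of 10 interstitial macrophage markers 6 rose and 1 fell in each. Of 8 fibroblast markers 1 rose and 6 fell in airway and 2 rose and 5 fell in parenchyma. Of 6 smooth muscle markers 2 fell in airway and 1 rose and 1 fell in parenchyma, of 6 airway epithelium markers 1 rose and 2 fell in each tissue, and of 3 cartilage markers tested 2 fell in airway and none passed in parenchyma. Of the 6 alveolar epithelium markers 5 fell in airway, with sums of 4073 to 19482 CPM (median 15624) with PBS and 2030 to 14809 (median 7750) with HDM. Their part in the differences of the members was not tested.

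**Figure D2:**
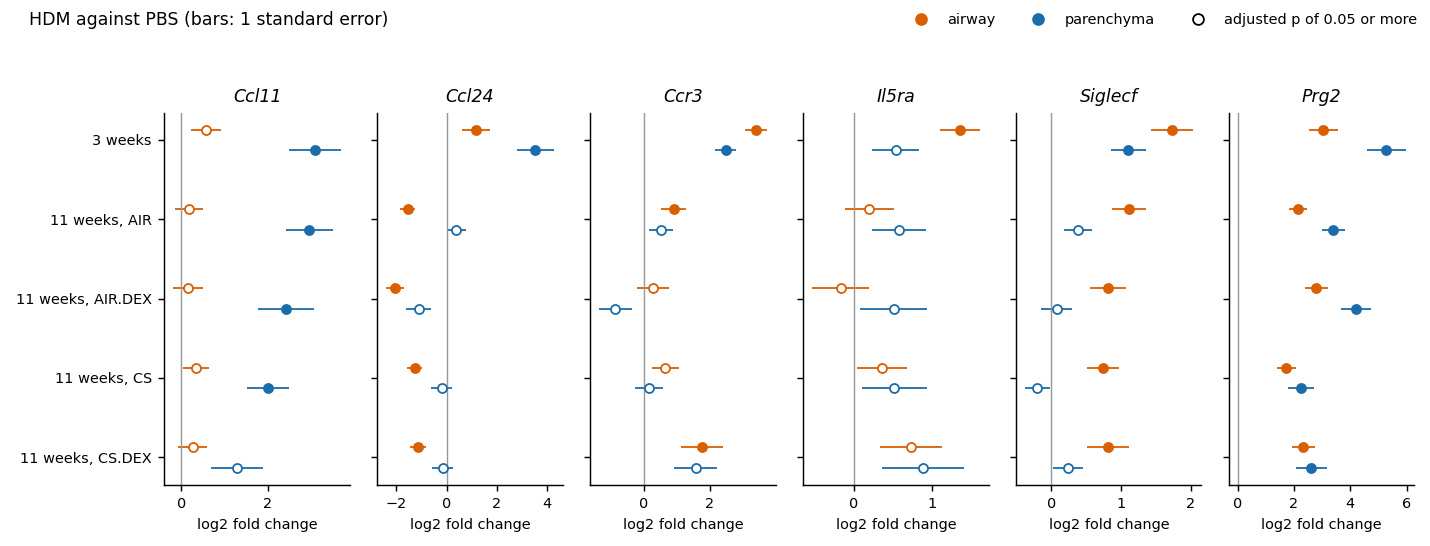
Log2 fold change of HDM against PBS for 6 members at 3 weeks and in the 4 settings at 11 weeks, with bars of 1 standard error, airway and parenchyma in separate colours, and open points where the adjusted p was 0.05 or more. Ccl11 lies at 0.15 to 0.57 in airway and at 1.28 to 3.10 in parenchyma. Its airway difference at 3 weeks, an open point here, passed with edgeR and with DESeq2. Ccl24 changes sign in airway between 3 weeks (1.18) and 11 weeks with AIR (-1.55).

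The second comparison asked what remained at 11 weeks, with room air and without dexamethasone. The eotaxins parted, with Ccl11 higher in parenchyma and Ccl24 lower in airway, and Prg2 stayed higher in both tissues. In airway 3 of 6 members rose and 1 fell, beside 31.3% and 29.8% of 18250 genes, 61.1% in all. In parenchyma 2 of 6 rose and none fell, beside 32.6% and 26.9%, 59.5% in all.

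Ccl24 in airway was at 1.47, 3.81 and 7.56 CPM with PBS.AIR and at 0.441, 1.25 and 4.36 with HDM.AIR. Of the HDM libraries 6 of 10 lay below all PBS libraries, and the gene fell by 1.55 on the log2 scale (SE 0.30, adjusted p = 2.9e-06), or 2.92-fold. In parenchyma it was at 0.39, 1.02 and 1.7 CPM and at 0.57, 1.01 and 5.53, a difference of 0.39 (SE 0.37, adjusted p = 0.373). The airway effect less the parenchyma effect was -1.94 (SE 0.48, adjusted p = 0.00107).

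Markers of the airway wall fell with Ccl24. All 6 smooth muscle markers fell in airway, with sums of 512 to 1849 CPM (median 1150) with PBS.AIR and 184.7 to 562 (median 407) with HDM.AIR. All 4 cartilage markers fell there as well, and of 8 fibroblast markers 4 fell and 2 rose. Their part in the fall of Ccl24 was not tested.

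Ccl11 in parenchyma was at 0.79, 1.3 and 2.88 CPM with PBS.AIR and at 2.81, 13.8 and 38.4 with HDM.AIR. It rose by 2.96 (SE 0.55, adjusted p = 1.23e-06), with 9 of 10 HDM values past the PBS range. In airway it was at 5.54, 12.0 and 25.3 CPM and at 2.63, 13.8 and 48.9, overlapping widely, with a difference of 0.18 (SE 0.32, adjusted p = 0.645). The tissues differed in this effect by -2.78 (SE 0.64, adjusted p = 0.000445). By limma-voom Ccl11 and Ccl24 were 2 of 6 members whose effects differed between tissues, beside 27.6% of genes. By edgeR and by DESeq2 it was 3 each. At an unadjusted p under 0.05 in limma-voom it was 4, with Prg2 and Siglecf in addition.

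Ccr3 in airway went from 1.81, 2.18 and 4.32 CPM to 1.8, 4.86 and 10.3. It rose by 0.90 (SE 0.37, adjusted p = 0.0303) although the lowest libraries of both groups were alike, and the call was lost with no filter on low counts and with runs of 20 sample codes as a term. In parenchyma it was at 1.48, 3.01 and 5.25 CPM and at 1.89, 3.58 and 11.3, a difference of 0.51 (SE 0.37, adjusted p = 0.242). Il5ra did not pass in airway at 0.20 (SE 0.31) or in parenchyma at 0.58 (SE 0.35).

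Siglecf in airway went from 3.21, 7.03 and 15.7 CPM to 10.1, 15.3 and 28.1 and rose by 1.11 (SE 0.24, adjusted p = 2.67e-05), with 5 of 10 HDM values past the PBS range. In parenchyma it was at 11.8, 18.1 and 22.4 CPM and at 16.8, 23.5 and 29.8, a difference of 0.39 (SE 0.20, adjusted p = 0.0832). Prg2 in parenchyma went from 0.0847, 0.156 and 0.824 CPM to 1.32, 2.2 and 4.94. Its groups did not overlap there, and it rose by 3.40 (SE 0.40, adjusted p = 2.92e-13), or 10.5-fold. In airway it went from 0.164, 0.454 and 4.16 CPM to 1.37, 2.12 and 4.43 and rose by 2.13 (SE 0.32, adjusted p = 3.63e-09). Epx had a count in 9 of 10 HDM.AIR and 3 of 10 PBS.AIR airway libraries, with means of 0.119 and 0.0427 CPM that did not pass (permutation p = 0.15). That rested on library X5 of PBS.AIR, at 0.365 CPM, without which the PBS.AIR mean was 0.0069 CPM and the groups differed (permutation p = 0.00087, adjusted p = 0.0012). X5 was picked by its own Epx value, so the second test shows only how the result hung on it and is no separate support for a difference. In parenchyma it had a count in 5 of 10 and 2 of 10 parenchyma libraries (permutation p = 0.07, adjusted p = 0.094).

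Markers of other cell types also moved with HDM at 11 weeks, the single alveolar macrophage markers in both directions. In airway the alveolar macrophage markers summed to 534 to 936 CPM (median 636) with PBS.AIR and to 912 to 9160 (median 2398) with HDM.AIR, where 4 of 10 rose and 2 fell. All 6 B cell and all 6 plasma cell markers rose there, with median sums of 123.4 and 432.7 CPM for B cells and 599 and 9446 CPM for plasma cells. In parenchyma the alveolar macrophage sum had medians of 1031.5 and 2911 CPM, with 3 of 10 markers rising and 3 falling, and all 6 B cell and all 6 plasma cell markers rose. Their part in the rises of Siglecf and Prg2 was not tested.

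Between tissues at 11 weeks, 4 of 6 members differed with PBS.AIR, beside 56.4% of genes. Ccl11 was higher in airway by 2.99 (SE 0.55), Ccl24 by 1.96 (SE 0.32) and Prg2 by 1.24 (SE 0.46), and Siglecf was lower, at -1.25 (SE 0.24). The call on Prg2 rested on library X5 of the PBS.AIR airway group, without which the difference was 0.93 and did not pass. With HDM.AIR 0 of 6 passed in limma-voom, beside 11.4% of genes, and edgeR and DESeq2 also passed 0. At an unadjusted p under 0.05 it was 1, Siglecf, at -0.52 (SE 0.20).

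The effect of HDM was then compared between 11 and 3 weeks in a fit of all libraries. It was lower at 11 weeks for 3 of 7 members in airway, beside 28.4% of genes in either direction, and for 5 of 7 in parenchyma, beside 42.4%. For Ccl24 the change was -2.78 in airway (SE 0.56, adjusted p = 3.88e-05) and -3.28 in parenchyma (SE 0.72, adjusted p = 6.67e-05). In airway that was a change of sign, from 1.18 to -1.55 in the fits of each week. For Ccr3 the changes were -2.57 (SE 0.52, adjusted p = 4.58e-05) and -2.10 (SE 0.52, adjusted p = 0.000416). Il5ra differed in airway at -1.22 (SE 0.42, adjusted p = 0.0213), and that call was lost with edgeR and DESeq2. In parenchyma Siglecf differed by -0.84 (SE 0.30), Prg2 by -2.01 (SE 0.68) and Epx by -2.51 (SE 0.73), and Epx did not pass with edgeR or DESeq2. Epx, below the filter in the fits of each week, reached this fit through its highest libraries, most of them 3-week HDM. Its call was thus shaped by the filter and is no separate support, though it is counted among the 5 of 7 in parenchyma. Ccl11 stood apart with differences of -0.45 (SE 0.45) in airway and -0.27 (SE 0.78) in parenchyma, neither of which passed. HDM was given less often per week after week 3, so length and spacing of exposure cannot be told apart.

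At 11 weeks the related lists moved as follows. Of the other CCR3 ligands 2 of 3 rose in airway and 3 of 3 in parenchyma, with Ccl7 at 1.07 (SE 0.33) and 2.49 (SE 0.40). Of 6 type 2 cytokines and alarmins that could be tested, 3 rose in each tissue, 2 fell in airway and 1 in parenchyma. Il13 rose by 2.81 (SE 0.53) and 3.16 (SE 0.53). Il5, now testable, fell in airway, at -1.50 (SE 0.41, adjusted p = 0.00073) and was at 0.04 (SE 0.42) in parenchyma. Of 16 type 2 receptors and signal proteins 14 rose in airway, and 12 rose and 1 fell in parenchyma. Of 14 other eosinophil genes that could be tested 5 rose in airway, and 5 rose and 2 fell in parenchyma.

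Cigarette smoke was compared with room air next. Without HDM it raised Siglecf in parenchyma from 11.8, 18.1 and 22.4 CPM to 23.2, 29.3 and 44.1. The groups did not overlap, and the rise was 0.75 (SE 0.19, adjusted p = 0.00105), the only one of 6 members to pass, beside 35.9% of genes. Of the 10 alveolar macrophage markers 6 rose and 2 fell there, and their sum went from 907 to 1453 CPM (median 1031.5) to 2373 to 4075 (median 2621). Their part in the rise of Siglecf was not tested. In airway Siglecf was at 0.35 (SE 0.26), and 0 of 6 members passed in limma-voom, edgeR or DESeq2 or at an unadjusted p under 0.05, beside 13.7% of genes.

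With HDM, smoke lowered Prg2 in parenchyma, from 1.32, 2.2 and 4.94 CPM in HDM.AIR to 0.298, 0.84 and 1.5 in HDM.CS. Of the smoke libraries 9 of 10 were below all AIR libraries, and it fell by 1.55 on the log2 scale (SE 0.30, adjusted p = 2.37e-05), beside 24.1% of genes that passed. All 6 B cell markers and 5 of 6 plasma cell markers fell there too, and their part was not tested. In airway 0 of 6 members passed in limma-voom, edgeR and DESeq2, beside 16.2% of genes, and 1, Prg2 at -0.50 (SE 0.25), had an unadjusted p under 0.05. The interaction of HDM and smoke passed for 0 of 6 members in each tissue by limma-voom, edgeR and DESeq2, beside 19.1% of genes in airway and 36% in parenchyma. At an unadjusted p under 0.05 it was 0 in airway and 1 in parenchyma, Siglecf at -0.59 (SE 0.27). For Prg2 in parenchyma the interaction was -1.14 (SE 0.61, adjusted p = 0.137).

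Within smoke, HDM gave 3 calls in airway and 2 in parenchyma. In airway Siglecf rose by 0.74 (SE 0.23), a call lost with edgeR, DESeq2 and library quality weights, and Prg2 by 1.73 (SE 0.33) while Ccl24 fell by 1.26 on the log2 scale (SE 0.30), beside 33.1% of genes that passed. In parenchyma Ccl11 rose by 2.01 (SE 0.49) and Prg2 by 2.25 (SE 0.46), beside 9.94% of genes. Ccl11 there was at 1.69, 2.49 and 3.27 CPM with PBS.CS and at 4.05, 9.37 and 32.4 with HDM.CS, with no overlap. With smoke and dexamethasone together, 4 of 6 members passed in airway, beside 33.6% of genes. There Ccr3 rose by 1.76 (SE 0.64), Siglecf by 0.81 (SE 0.30) and Prg2 by 2.34 (SE 0.42), and Ccl24 fell by 1.14 on the log2 scale (SE 0.31). The call on Ccr3 was lost with edgeR, that on Siglecf with the tissues fitted separately and that on Ccl24 with all libraries in 1 fit. In parenchyma Prg2 alone passed, at 2.62 (SE 0.54), beside 22% of genes, and Ccl11 was at 1.28 (SE 0.60, adjusted p = 0.118), passing with edgeR and DESeq2 at 1.55.

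The last comparison asked what dexamethasone did in week 11. By limma-voom the receptor genes Ccr3 and Il5ra fell in HDM.AIR and in PBS.CS mice in both tissues, and Siglecf fell in both smoke groups. In HDM.AIR parenchyma all 6 tested members fell, beside 16.2% of 18250 genes that fell and 28.5% that passed, and in airway 4 of 6 fell, beside 16% and 28.6%. The medians over the 6 members were -1.04 and -0.92, against 0.006 and 0.005 over all genes. These comparisons share the HDM.AIR libraries with the HDM comparison, so the size of one is not independent of the other.

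Ccl24 in parenchyma was at 0.57, 1.01 and 5.53 CPM in HDM.AIR and at 0.0855, 0.234 and 0.531 with dexamethasone. All 10 treated libraries lay below all untreated ones, and it fell by 2.05 on the log2 scale (SE 0.48, adjusted p = 0.000378), or 4.13-fold. In airway it was at 0.441, 1.25 and 4.36 CPM and at 0.147, 0.634 and 1.06, and it fell by 1.08 (SE 0.40, adjusted p = 0.0324), a call lost with the tissues fitted separately and with all libraries in 1 fit. Ccl11 in parenchyma went from 2.81, 13.8 and 38.4 to 3.65, 5.07 and 14.0 CPM. The groups overlapped throughout, and it fell by 1.08 (SE 0.41, adjusted p = 0.0328), a call lost with all libraries in 1 fit. In airway the difference in Ccl11 was -0.39 (SE 0.34, adjusted p = 0.421).

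Ccr3 in parenchyma went from 1.89, 3.58 and 11.3 CPM to 0.177, 1.41 and 4.76 with dexamethasone. Of the treated libraries 6 of 10 were below all others, and it fell by 1.91 (SE 0.46, adjusted p = 0.000593). Libraries with sample codes up to 120 had medians of 2.92 CPM untreated and 3.1 treated, and those above 120 had 6.14 and 0.349, so the fall lay in the latter. With runs of 20 codes as a term the difference was -1.40 and passed. In airway it went from 1.8, 4.86 and 10.3 CPM to 0.709, 1.44 and 3.64 and fell by 1.51 (SE 0.41, adjusted p = 0.00246). Il5ra in airway went from 0.396, 0.65 and 1.38 CPM to 0.0983, 0.331 and 0.612 and fell by 1.08 (SE 0.35, adjusted p = 0.0115). In parenchyma it fell by 1.00 (SE 0.38, adjusted p = 0.0341), a call lost with library quality weights.

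Siglecf in parenchyma fell by 0.56 (SE 0.21, adjusted p = 0.0301), a call lost with edgeR and DESeq2, and stood at -0.52 (SE 0.22, adjusted p = 0.0688) in airway. Prg2 in parenchyma went from 1.32, 2.2 and 4.94 CPM to 0.638, 1.22 and 2.19 and fell by 0.98 (SE 0.28, adjusted p = 0.00401). Its fall in airway by 0.76 (SE 0.27, adjusted p = 0.0202) was lost with edgeR and DESeq2. With dexamethasone in both arms, HDM raised Prg2 by 2.79 (SE 0.41) in airway and by 4.21 (SE 0.54) in parenchyma, beside 49.7% and 42.2% of genes that passed, and in parenchyma all 10 HDM.AIR.DEX libraries were above all PBS.AIR.DEX libraries.

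**Figure D3:**
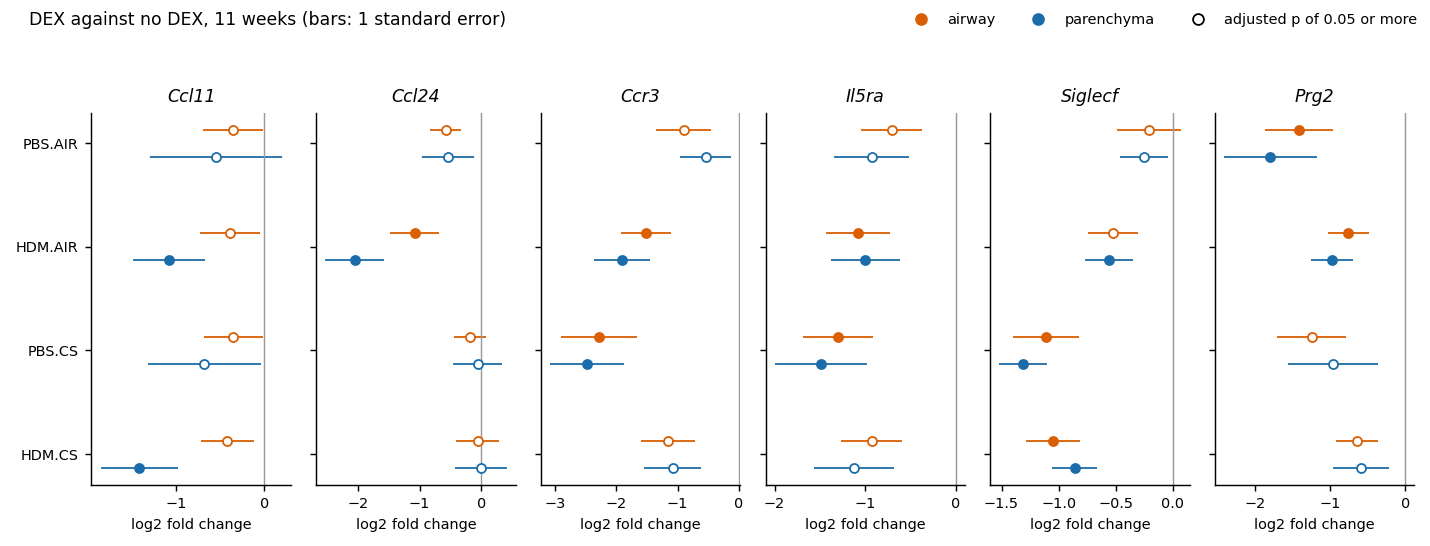
Log2 fold change of dexamethasone against none at 11 weeks for 6 members in 4 exposures, with bars of 1 standard error, airway and parenchyma in separate colours, and open points where the adjusted p was 0.05 or more. Every point is below 0, from -0.01 for Ccl24 in HDM.CS parenchyma to -2.48 for Ccr3 in PBS.CS parenchyma, and 21 of the 48 are filled.

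In PBS.CS mice, which had no HDM, Ccr3 in airway went from 0.963, 1.74 and 4.12 CPM to 0.0792, 0.215 and 2.91 and fell by 2.28 (SE 0.62, adjusted p = 0.0061). In parenchyma it went from 1.07, 2.32 and 4.76 to 0.0384, 0.224 and 5.37 CPM and fell by 2.48 (SE 0.61, adjusted p = 0.00163), a call lost with edgeR and DESeq2. Of the 10 treated libraries 7 lay below all untreated ones in each tissue, and in parenchyma 1 lay above them all. Siglecf in parenchyma went from 23.2, 29.3 and 44.1 to 5.27, 13.0 and 19.6 CPM. Its groups did not overlap, and it fell by 1.31 (SE 0.21, adjusted p = 5.03e-07). In airway Siglecf fell, at -1.11 (SE 0.29), and Il5ra, at -1.30 (SE 0.39), a call lost with edgeR and DESeq2. In parenchyma Il5ra fell by 1.49 (SE 0.51), a call lost with edgeR. By limma-voom 3 of 6 members thus fell in each tissue, against 2 in airway by edgeR and by DESeq2 and 1 and 2 in parenchyma, beside 6.6% of genes that fell and 11.3% that passed in airway and 9.49% and 16.9% in parenchyma. Interstitial macrophage markers were lower beside Siglecf, with 7 of 10 falling in parenchyma and sums of 719 to 914 CPM (median 833) without and 471 to 655 (median 595) with dexamethasone, groups that did not overlap. In airway 2 of 10 fell, with median sums of 685 and 530.2 CPM. Of the 10 alveolar macrophage markers 5 fell in parenchyma and 2 in airway. In the comparison within groups given below, Siglecf did not pass with the interstitial macrophage sum (r = 0.206 in parenchyma and 0.091 in airway). It passed with the alveolar macrophage sum (r = 0.476 and 0.642). The part of macrophages in the fall of Siglecf was not tested.

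In PBS.AIR mice only Prg2 passed, at -1.42 (SE 0.45) in airway and -1.80 (SE 0.62) in parenchyma, beside 14.9% and 22.6% of genes. The airway call rested on library X5, with 4.16 CPM the highest of its group, and without it the difference was -1.12 and did not pass. In HDM.CS mice Siglecf fell by 1.05 (SE 0.24) in airway, 1 of 6 members, beside 9.3% of genes. In parenchyma Siglecf fell, at -0.86 (SE 0.20), and Ccl11, at -1.42 (SE 0.44), beside 7.86%. Of the 10 interstitial macrophage markers 3 fell in airway and 2 in parenchyma, and of the 10 alveolar macrophage markers 2 and 1. Ccl24 in HDM.CS parenchyma was at -0.01 (SE 0.42). Its change with dexamethasone thus differed from that in HDM.AIR by 2.04 (SE 0.64, adjusted p = 0.037), the only member to differ, beside 5.67% of genes. In airway 0 of 6 members differed by limma-voom, edgeR or DESeq2 or at an unadjusted p under 0.05, beside 0.334% of genes.

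Whether dexamethasone acted differently in HDM and PBS mice was tested by the interaction in room air. By limma-voom 0 of 6 members passed in either tissue, beside 4.62% of genes in airway and 12.4% in parenchyma. In airway 0 members had an unadjusted p under 0.05 and edgeR and DESeq2 passed 0. In parenchyma 2 had one, Ccl24 at -1.50 (SE 0.64, adjusted p = 0.103) and Ccr3 at -1.38 (SE 0.63, adjusted p = 0.135), and edgeR and DESeq2 each passed Ccl24.

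B cell markers fell with dexamethasone in every setting, 6 of 6 genes in each of the 8 comparisons. Their sum went from 281 to 574 CPM (median 433) to 99.2 to 296 (median 160) in HDM.AIR airway, and from 221 to 424 (median 288) to 62.6 to 193.1 (median 96.995) in parenchyma. In PBS.CS airway it went from 68.5 to 239 (median 141.5) to 11.4 to 141.03 (median 48.01), and in parenchyma from 37.8 to 151.8 (median 91.2) to 6.87 to 66.3 (median 20.4). Il5ra is known on some B cells, and the part of B cells in its fall was not tested. Alveolar epithelium markers rose in 6 of 6 genes in HDM.AIR airway and 5 of 6 in parenchyma. Of the other CCR3 ligands Ccl7 and Ccl5 fell in HDM.AIR in both tissues, Ccl7 at -1.12 (SE 0.34) and -1.04 (SE 0.32). Of 14 other eosinophil genes 5 fell and none rose in each tissue, and of 16 type 2 receptors and signal proteins 5 fell in airway and 8 in parenchyma.

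Members were also compared within groups, as deviations of log2 CPM from the group mean, over all libraries of a tissue (42 relations, 100000 permutations within groups, 2-sided, adjusted over the 42). Both Pearson's r and Spearman's rho passed for 16 of 21 pairs in airway and 15 of 21 in parenchyma. The 2 eotaxins varied together most in airway, with r = 0.722 and rho = 0.712 (permutation adjusted p = 3.2e-05 and 4.2e-05, the smallest these permutations can give after adjustment). Without the 2 extreme libraries r was 0.687. In parenchyma they gave r = 0.513 and rho = 0.372 (adjusted p = 5.6e-05 and 0.00099), and 0.447 without those libraries.

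Siglecf ran against Ccl11, Ccl24, Il5ra and Prg2 in airway. With Prg2 it gave r = -0.500 and rho = -0.448 (permutation adjusted p = 3.2e-05 and 7e-05; r = -0.564 without the 2 extreme libraries), and with Ccl11 r = -0.433 and rho = -0.428 (adjusted p = 7.4e-05 and 7e-05; -0.393 without them). Il5ra and Prg2 ran together there, with r = 0.606 and rho = 0.589 (adjusted p = 3.2e-05 and 4.2e-05; 0.576 without them). In parenchyma Ccr3 and Il5ra gave r = 0.528 and rho = 0.522 (adjusted p = 3.2e-05 and 4.2e-05; 0.529 without them). Libraries shared depth and tissue makeup, which such correlations carry.

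Tissue makeup was read from the marker sums in the same way, for 7 members and 12 marker lists in 2 tissues, relations added after the data were seen and adjusted together. Of these relations 58 passed for both r and rho, the strongest with alveolar epithelium, B cell and fibroblast markers. Each sum added the CPM of its genes without scaling, so the most abundant genes weigh most. Single alveolar macrophage markers went both ways with HDM, so their sum cannot be read as an amount of those cells. Siglecf in airway ran against fibroblast, smooth muscle and cartilage markers at r = -0.743, -0.702 and -0.688, with rho = -0.766, -0.701 and -0.702. Each had permutation adjusted p = 7.3e-05 and 7e-05, and r was -0.701, -0.677 and -0.661 without the 2 extreme libraries. In airway Siglecf followed the alveolar epithelium markers with r = 0.834 and rho = 0.819 (permutation adjusted p = 7.3e-05 and 7e-05, the smallest these permutations can give after adjustment; r = 0.810 without the 2 extreme libraries). In parenchyma the same relation was r = 0.137 and rho = 0.197 (adjusted p = 0.37 and 0.12; 0.090 without them). Airway libraries that held more alveolar marker RNA thus held more Siglecf. Ccl11 in airway ran with smooth muscle markers at r = 0.599 and rho = 0.578 (0.606 without them). With fibroblast markers it gave r = 0.493 and rho = 0.506 there (0.497 without them). In parenchyma Ccl11 ran against fibroblast markers, at r = -0.487 and rho = -0.517 (-0.508 without them). It followed the alveolar macrophage sum there, at r = 0.647 and rho = 0.514 (0.6 without them). Each of these Ccl11 relations had adjusted p = 7.3e-05 and 7e-05. With smooth muscle markers in parenchyma, Ccl11 gave r = 0.388 and rho = 0.36 (adjusted p = 0.0033 and 0.0028; 0.442 without them). Ccl24 in airway did not pass with the alveolar or interstitial macrophage sum, at r = 0.176 and 0.122. It passed there with B cell, smooth muscle, cartilage and fibroblast sums, at r = 0.431, 0.417, 0.368 and 0.36. Against alveolar epithelium it passed at r = -0.379. In parenchyma Ccl24 did pass with the alveolar macrophage sum, at r = 0.41 and rho = 0.306. Siglecf in airway also followed the alveolar macrophage sum, at r = 0.642 and rho = 0.714 (0.605 without them), and Prg2 the B cell sum, at r = 0.683 and rho = 0.668 (0.650 without them), each with adjusted p = 7.3e-05 and 7e-05. Il5ra followed the B cell sum at r = 0.753 and rho = 0.684 in airway (0.727 without them) and at r = 0.597 and rho = 0.598 in parenchyma (0.568 without them), each with adjusted p = 7.3e-05 and 7e-05. Ccr3 followed it in parenchyma at r = 0.704 and rho = 0.551 (adjusted p = 7.3e-05 and 7e-05; 0.677 without them) and less clearly in airway at r = 0.223 and rho = 0.162 (adjusted p = 0.23 and 0.27; 0.234 without them). B cell markers were not the only list that Prg2 and Il5ra followed in airway. Prg2 passed with smooth muscle, fibroblast and cartilage sums at r = 0.527, 0.476 and 0.452, and Il5ra at 0.398, 0.389 and 0.396. Both passed against the alveolar epithelium sum, at r = -0.519 and -0.567, and with further lists.

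**Figure D4:**
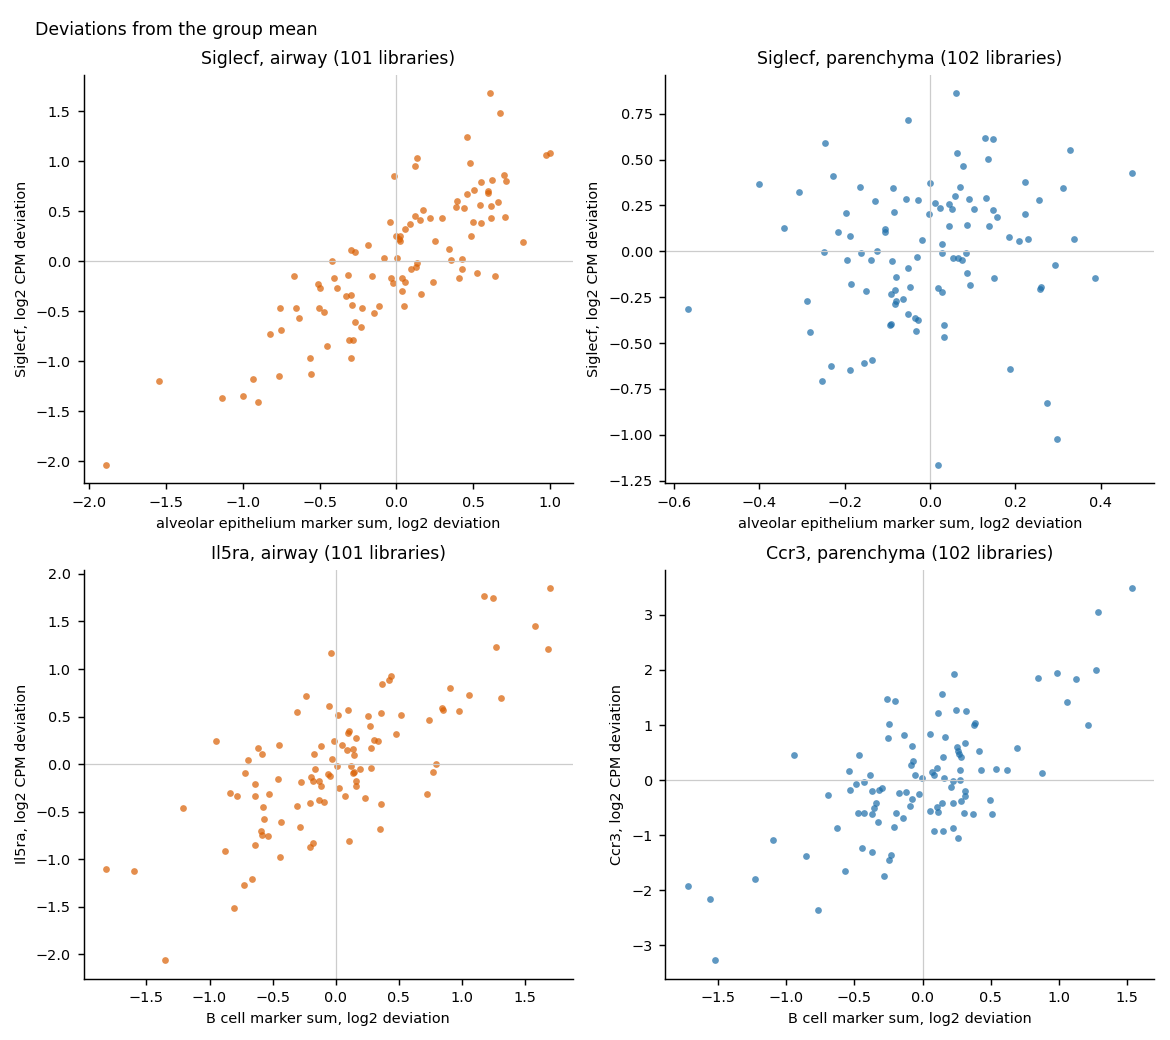
Deviation from the group mean of a member (log2 CPM, vertical) against that of a marker sum (log2, horizontal), 1 point per library, for Siglecf with alveolar epithelium in airway and parenchyma, Il5ra with B cells in airway and Ccr3 with B cells in parenchyma. The Siglecf points form a rising band in airway (r = 0.834) and none in parenchyma (r = 0.137).

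Ccr3 also varied with the number in the sample code, a label that gives no date or batch. This was seen after the data were examined and is given as a description. In HDM.AIR.DEX parenchyma, codes up to 120 were at 1.36, 3.1 and 4.76 CPM (6 libraries) and codes above 120 at 0.177, 0.349 and 0.424 (4 libraries). In PBS.AIR.DEX airway they were at 1.55, 2.48 and 4.01 CPM and at 0.21, 0.56 and 1.27, and in PBS.AIR.DEX parenchyma at 2.18, 4.58 and 8.36 and at 0.147, 0.91 and 1.67. The ranges did not overlap in these 3 groups and overlapped in the other 5 dexamethasone groups. In HDM.AIR airway without dexamethasone they overlapped as well, at 1.8, 3.02 and 10.3 CPM and at 4.57, 5.47 and 10.3. In HDM.AIR parenchyma without it they were at 1.89, 2.92 and 6.98 CPM and at 2.89, 6.14 and 11.3. In PBS.AIR parenchyma without it they were at 1.48, 2.92 and 4.21 CPM and at 1.89, 3.01 and 5.25. Up to code 120 the Ccr3 median was thus not lower with dexamethasone in the parenchyma of either room-air group, while above 120 it was lower in both. In HDM.AIR airway the medians went from 3.02 to 2.1 CPM up to 120 and from 5.47 to 0.954 above it. What the code stands for was not tested.

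**Figure D5:**
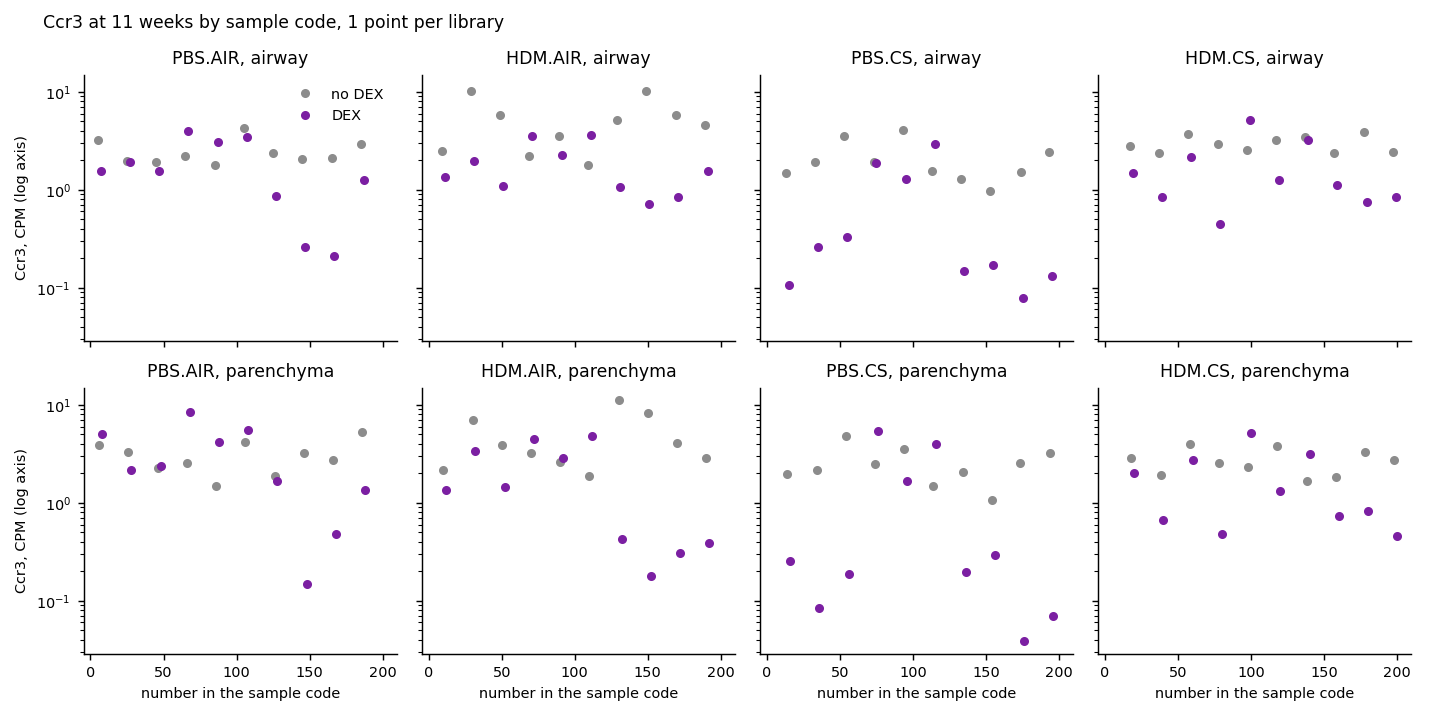
Ccr3 level (CPM, log axis) of each 11-week library against the number in its sample code, by exposure and tissue, with dexamethasone libraries in purple and the others in grey. In HDM.AIR parenchyma the purple points above code 120 lie at 0.177 to 0.424 CPM, below the purple points up to 120 at 1.36 to 4.76 CPM.

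Consecutive sample codes held an airway and a parenchyma library of the same exposure in every pair that could be formed. Deviations from the group mean ran together across such pairs for Ccr3, with r = 0.856 and rho = 0.812 (7 relations, permutation adjusted p = 3.5e-05 for each, the smallest these permutations can give after adjustment; r = 0.839 without the 2 extreme pairs). For Ccl11 they gave r = 0.749 and rho = 0.685 (adjusted p = 3.5e-05 for each; 0.698 without them). Il5ra at r = 0.212 and rho = 0.213 (adjusted p = 0.094 and 0.06; 0.204 without them) and Siglecf at r = 0.163 and rho = 0.193 (adjusted p = 0.14 and 0.065; 0.145 without them) did not pass. Labels do not say whether consecutive codes are tissues of the same mouse.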

How the data were processed

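The deposited table held estimated counts per gene for 203 libraries, which the authors made from bulk RNA-seq reads; their processing notes name bcl2fastq 2.20.0.422, STAR 2.5.1b, RSEM 1.2.31, kallisto 0.44.0 and mm10. Fractions occurred in 20.3% of values above 0, so all were rounded first. Of 43346 identifiers 42462 matched a GENCODE M21 symbol without the version. Total counts per library ran from 13003087 to 40240680. Genes were kept where 9 or more libraries reached the CPM worth 10 counts at median depth, and fitted with limma-voom (limma 3.58.1, edgeR 4.0.16 for TMM factors, R 4.3.3), with 1 mean per group and Benjamini-Hochberg adjustment over all genes. As alternatives, DESeq2 1.42.0 and the quasi-likelihood test of edgeR were run, with other filters, scaling, weights and fits, and terms for sample codes. Permutation tests used numpy 2.4.6. Scripts were tested on simulated data. Members and gene lists were chosen with earlier results of these data known. All members, up to 4 genes of smallest p per pathway list and HDM comparison, and the 3 genes most like each member could be named, and listed genes named for dexamethasone, with Il5 in parenchyma, were chosen after their values were seen. The annotation release used for the counts could not be settled, since 23106 identifiers carry the M21 version.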

Additional observations from a re-analysis of the deposited data

Results flagged for a closer look

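Each member was searched, in each group of at most 10 libraries, for a library far from the others. There were 10 such libraries and members, and chance marks about 1 in 20 groups. Ccl11 in 11-week PBS.CS airway was at 34.7 CPM in library X174, with the next at 18.2. Siglecf was at 5.36 CPM in X63 of 3-week HDM airway (next 17.6), at 44.1 in X173 of PBS.CS parenchyma (next 32.4) and at 15.8 in X58 of HDM.CS parenchyma (next 22.4). Prg2 was at 0.895 CPM in X173 of PBS.CS parenchyma (next 0.213). Epx stood out in X5 of PBS.AIR airway at 0.365 CPM, X88 of PBS.AIR.DEX parenchyma at 0.0588, X115 of PBS.CS.DEX airway at 0.147, X116 of PBS.CS.DEX parenchyma at 0.0349 and X137 of HDM.CS airway at 0.0738. These were 10 counts in X5, 5 in X115, 2 in X88 and X137 and 1 in X116. In the groups of X88 and X116 all other libraries were at 0, so any count marks its library there and the rate of about 1 in 20 does not apply to them. In the groups of X5, X115 and X137, 7, 8 and 8 of 10 libraries were at 0, so the rate cannot be taken to hold for those flags either.

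Effects that differed between tissues, durations or exposures by a test of the difference itself (limma-voom, Benjamini-Hochberg) numbered 12 over 10 such contrasts. The HDM effect on Ccl11 differed between airway and parenchyma by -2.53 at 3 weeks and by -2.78 at 11 weeks, and that on Ccl24 by -1.94 at 11 weeks. The dexamethasone effect on Ccl24 in parenchyma of HDM mice differed by 2.04 between smoke and air. From 3 to 11 weeks the HDM effect in airway changed by -2.78 for Ccl24, -2.57 for Ccr3 and -1.22 for Il5ra. In parenchyma it changed by -3.28 for Ccl24, -2.10 for Ccr3, -0.84 for Siglecf, -2.51 for Epx and -2.01 for Prg2. The value for Epx carries the limit of the filter given above.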

How the results depend on the processing

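No member's value that passed changed direction under the alternatives for which it was tested, with 2037 values on the same side of the threshold, 79 newly past it and 42 no longer past it. Values that did not pass could change sign, as Prg2 did with smoke in PBS airway, from -0.09 to 0.22 without library X5. Counts of members that passed stayed within 1.5 times in 312 cases and moved in 67. A filter of at least 10 CPM left fewer members to test. Under it the HDM effect passed for 2 members in 3-week airway and 0 for the difference between tissues, for 1 in each tissue with AIR, 1 and 0 with AIR.DEX, 1 and 0 with CS and 0 and 0 with CS.DEX. It passed for 1 in the tissue difference with 3-week HDM, 1 in the 11-week difference of the HDM effect between tissues and 2 in the tissue difference with PBS.AIR. For smoke in HDM parenchyma it was 0, for the interaction of HDM and smoke in parenchyma 1, and for dexamethasone 0 in both tissues of PBS.AIR, 1 in both of HDM.AIR, 1 in both of PBS.CS and 1 in HDM.CS parenchyma. It was 0 for the difference of dexamethasone between smoke and air in parenchyma and 3 for the change of the HDM effect from 3 to 11 weeks in parenchyma.

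The count for the tissue difference of the HDM effect at 3 weeks was 3 by edgeR, by DESeq2, with all libraries in 1 fit and with consecutive codes joined, 2 with no filter and 4 with runs of 20 sample codes as a term. For PBS between tissues at 3 weeks it was 4 under the first 4 of these and 5 with runs of codes, and for HDM 1 by edgeR and 5 with all libraries. For HDM with CS.DEX in parenchyma it was 2 by edgeR, DESeq2, separate tissues and joined codes and 3 with library quality weights. Joined codes gave 4 for the tissue difference of the HDM effect at 11 weeks and, like quality weights, 1 for HDM.AIR between tissues. Smoke in HDM airway gave 1 with no filter, quality weights or all libraries. Smoke in HDM parenchyma gave 2 by edgeR, DESeq2, separate tissues and runs of codes, and 2 without library X58. The interaction of HDM and smoke in parenchyma gave 1 with separate tissues.

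Dexamethasone gave 0 in PBS.AIR airway with quality weights and without library X5, 0 in PBS.AIR parenchyma with all libraries, and 1 in PBS.CS parenchyma by edgeR. In HDM.CS airway it gave 3 with quality weights and 2 with separate tissues, joined codes or runs of codes. Its interaction with HDM in parenchyma gave 1 by edgeR, DESeq2, quality weights and runs of codes, and its difference between smoke and air in parenchyma 0 with all libraries. The cause of these changes was not tested. Joined codes, runs of codes and the libraries left out were chosen after seeing the data. The labels give the groups no shared replicate numbers, so no block on them was fitted. Joining consecutive codes, which pair airway with parenchyma, used a fitted correlation of 0.127 over 21 pairs at 3 weeks, 0.349 over 80 at 11 weeks and 0.297 over all pairs. Without library X5, picked by its own Epx value, the difference of Epx with HDM in 11-week airway went from 0.0761 to 0.112 CPM and passed. Low counts of Epx, Il5ra and Prg2 limit what their differences can show.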

Other observations

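The genes whose 20 group means were most like those of each member, among 18371 genes, are given as values, with points that share libraries, depth and tissue makeup. For Ccl11 these were Pdlim4 at r = 0.967, Ppif at 0.955 and Gm16201 at 0.954, and for Ccl24 Usp18 at 0.907, Gmps at 0.906 and Ifi27l2b at 0.904. For Ccr3 they were Sp100 at 0.939, Gfi1b at 0.928 and Gm1966 at 0.920, and for Il5ra Srpk3 at 0.951, Bcl11a at 0.950 and Zcchc18 at 0.947. For Siglecf they were Cnr2 at 0.961, Pik3r6 at 0.938 and Fpr2 at 0.935. Epx was most like Rbm44 at 0.968, Ccl1 at 0.959 and Gm2694 at 0.959, and Prg2 most like Ccl8 at 0.976, H2-M2 at 0.974 and Syt13 at 0.972.

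In PBS.CS.DEX the Ccr3 level parted 3 pairs of consecutive codes from the rest. Airway libraries X75, X95 and X115 were at 1.89, 1.28 and 2.91 CPM and parenchyma libraries X76, X96 and X116 at 5.37, 1.68 and 3.98 CPM, while the other 7 libraries of each tissue were at 0.33 CPM or less and at 0.294 CPM or less.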
